A study of Mus musculus with 24 samples.

Results

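The response to NeuroD2, a transcription factor of neurons, was compared between mouse embryo fibroblasts and P19 cells as 1 contrast per gene. The contrast took the signal of fibroblasts with NeuroD2 minus their batch 2 controls, and subtracted the signal of P19 cells with NeuroD2 minus their batch 3 controls. A positive value therefore means a larger rise or a smaller fall in fibroblasts, and the comparison asks which genes answer the same factor differently in different cells. It used 12 of the 24 Affymetrix arrays of the series, 3 in each of 4 groups, and covered 18193 genes. P19 is a line of mouse embryonal carcinoma cells, which are pluripotent and can be turned into neurons. The fibroblasts came from Myod-/-/Myf5-/- embryos, so both fibroblast groups lack these regulators of muscle, and were grown in DMEM with 10% FBS. Per the labels' protocols, lentivirus was given with polybrene at 8 µg/ml and the medium was renewed after 24 hours. P19 cells with NeuroD2 were harvested at 72 hours. No harvest time is given for their controls, so a difference in it and the factor cannot be told apart in the P19 effect. The labels give a differentiation medium at 48 hours for fibroblasts with MyoD, and a harvest of fibroblasts 36 to 40 hours after that medium. They do not state the medium or harvest time of fibroblasts with NeuroD2 or of their controls, so a difference in either and the factor cannot be told apart in any fibroblast effect, falls of chemokine, cell cycle and glycolysis genes included. Controls were untransduced, so the factor and the virus that carries it cannot be told apart, and P19 cells and fibroblasts were run in different batches, so cell type and batch cannot be told apart in the contrast. Nothing in the labels ties a replicate to a culture of its own, so p-values reflect spread among arrays that could be only technical.

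NeuroD2 belongs to the basic helix-loop-helix (bHLH) family. These factors bind short DNA motifs called E-boxes as dimers with E proteins, and the Id proteins, which lack the DNA-binding region, hold E proteins back. NeuroD2 acts with relatives such as Neurod1 in the differentiation of neurons, while Notch signalling, through ligands of the Delta and Jagged type and repressors of the Hes and Hey type, restrains neurogenic bHLH factors.

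The signal is a log2 intensity per gene, and the median of all gene-level values was 7.03. The 12 arrays had lower quartiles between 4.47 and 4.58 and upper quartiles between 8.23 and 8.39, and each correlated with the others of its group at 0.984 to 0.998 across genes. The labels held against markers of the cells: 5 markers of undifferentiated P19 cells (Pou5f1, Sox2, Nanog, Lin28a and Utf1) averaged 11.87 to 12.11 in the P19 arrays and 4.82 to 5.06 in the fibroblast arrays. The mean of 6 fibroblast markers was 13.4 to 13.55 in fibroblasts and 5.86 to 7.55 in P19 cells. None of these marker genes had a called difference of effects. Endothelial (4), blood and macrophage (4) and muscle (3) markers averaged under 7.03 in every group. The mean of 4 epithelial markers was 8.82 to 10.09 in P19 cells with or without NeuroD2 and 4.41 to 5.27 in fibroblasts. Neurod2 itself had 3 probe sets. On 1 of them it read 7.98, 7.20 and 7.87 in P19 cells with NeuroD2 against 6.13, 5.90 and 5.91 in controls, and 5.94, 5.97 and 5.94 against 5.82, 6.0 and 6.21 in fibroblasts. Its rise passed in P19 cells (1.70, limma adjusted p = 1.85e-06) and not in fibroblasts (-0.06, adjusted p = 0.943), and the remaining probe sets did not pass in either cell. The label of the fibroblasts with NeuroD2 is therefore not borne out by Neurod2 RNA on this array, and each direction in fibroblasts is that of the arrays labelled NeuroD2. Myod1 read 7.13 to 7.29 in fibroblasts and 5.12 to 5.58 in P19 cells on 1 probe set, and 3.43 to 3.94 in all arrays on another. Absence of Myod1 RNA in fibroblasts is not shown by the first of these, and the genotype rests on the labels.

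The difference between the effects passed the limma test (adjusted p under 0.05) for 825 genes that were higher in fibroblasts, 4.53% of those tested, and 1024 that were lower, 5.63%, so that 10.2% were called in all. Here and in the lists, higher and lower compare the effect in fibroblasts with that in P19 cells, not the signal itself. In P19 cells 928 genes rose (5.1%) and 589 fell (3.24%), and in fibroblasts 1166 rose (6.41%) and 1080 fell (5.94%). A P19 control array of batch 1, which is not in the contrast, stood apart from its group and widened the spread that all groups share. It stays among the P19 controls in every fit that uses batch 1 controls. Without it 2285 genes were higher and 2235 lower, 24.8% of all, and these included all 1849 of the first count. Counts of the lists without this array stand, in each direction, against those 2285 higher and 2235 lower of 18193 genes. Their main counts stand against 4.53% higher and 5.63% lower. With batch 1 controls more of all genes were called than in the main fit, most of them lower. List counts with those controls stand against that larger share. With each array shifted to the same median, which moved the median difference of all genes from 0.02 to 0.15, the split was 1544 higher and 915 lower. The arrays of the NeuroD2 and control groups did not overlap for 43.9% of all genes in fibroblasts and 26.0% in P19 cells. Among the called genes, 458 higher and 717 lower differed by at least 2-fold, and 8 and 35 by at least 16-fold. The difference shares its arrays with both effects, so the next counts are a description of how it arose and not a further test. Of the 1024 lower genes, 405 had risen in P19 cells with no call in fibroblasts, 441 had fallen in fibroblasts with no call in P19 cells, and 93 had risen in P19 cells and fallen in fibroblasts. Of the 825 higher genes, 518 had risen in fibroblasts with no call in P19 cells, 168 had fallen in P19 cells with no call in fibroblasts, and 50 had fallen in P19 cells and risen in fibroblasts. Across all 18193 genes, which are not independent replicates, the effects in the different cells correlated at r = 0.143 and rho = 0.146, and they share no array.

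**Figure D1:**
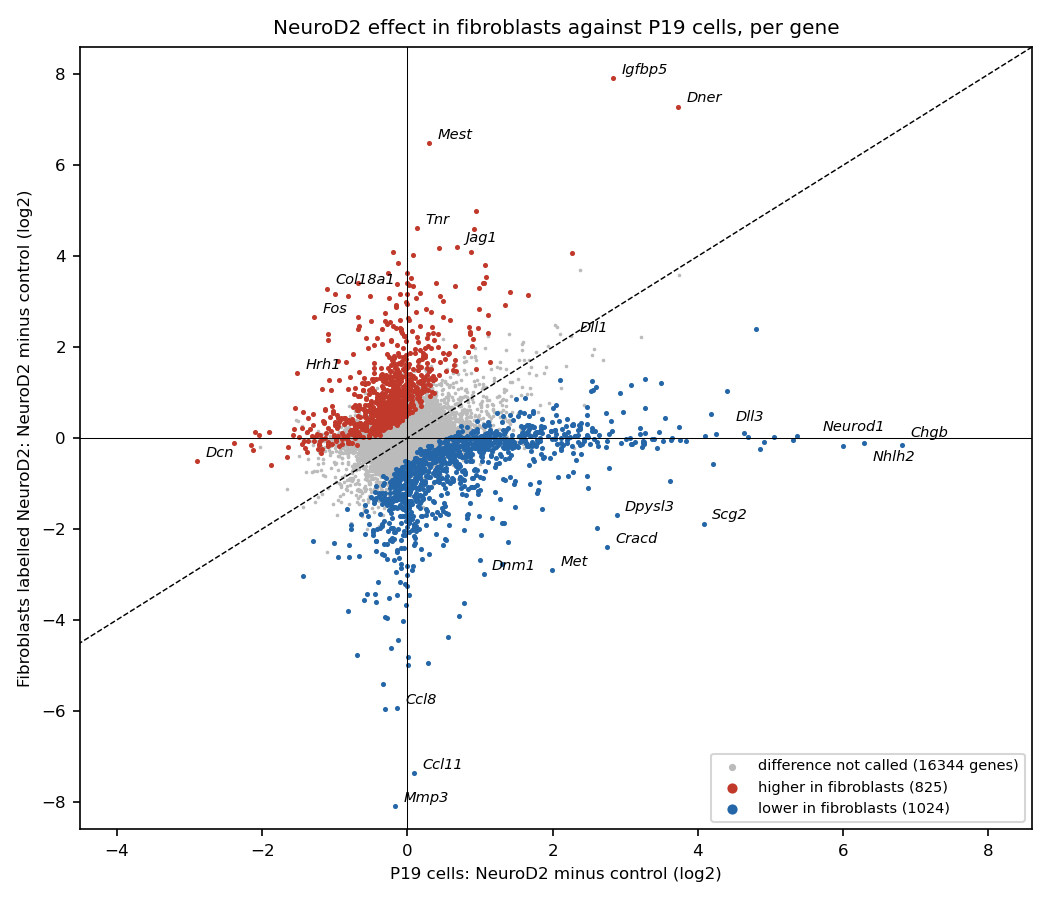
Each point is a gene, with its NeuroD2 effect in P19 cells on the x axis and in fibroblasts on the y axis (log2, NeuroD2 minus control, means of 3 arrays); red and blue mark called differences and the dashed line marks equal effects. Called genes lie mostly along the axes, as with Chgb, 6.81 in P19 cells and -0.15 in fibroblasts, and Mmp3, -0.17 and -8.09.

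The genes that rose most in P19 cells and were not called in fibroblasts were a secretory protein and neurogenic transcription factors. Chgb, a granin that packs the dense-core granules of neurons and endocrine cells, read 10.86, 11.79 and 11.79 in P19 cells with NeuroD2 and 4.65, 4.92 and 4.45 in their controls. In fibroblasts it read 4.83, 4.88 and 5.04 with NeuroD2 and 4.86, 5.20 and 5.13 without, so only the P19 cells with NeuroD2 stood high and the fibroblast groups overlapped. The effect was 6.81 ± 0.21 (log2, SE, n = 3 per group) in P19 cells and -0.15 ± 0.21 in fibroblasts, a difference of -6.96 ± 0.30 (limma adjusted p = 7.49e-13).

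Neurod1, a bHLH factor of the same family that drives neuronal and endocrine differentiation, read 10.33, 10.76 and 10.81 in P19 cells with NeuroD2 against 4.49, 4.97 and 4.43 in controls. The fibroblasts read 4.22, 4.27 and 4.07 against 4.36, 4.39 and 4.34. The P19 arrays with NeuroD2 were far above all others, while the fibroblasts labelled NeuroD2 lay just under their controls without overlap, and that small gap did not pass (-0.17, adjusted p = 0.621). The difference of effects was -6.18 ± 0.20 (limma adjusted p = 5.76e-15). Nhlh2, a bHLH factor of developing neurons, read 9.84, 10.37 and 10.43 with NeuroD2 and 3.97, 3.67 and 4.12 without in P19 cells. In fibroblasts its arrays lay between 3.68 and 4.05 in either group and overlapped. Its difference was -6.39 ± 0.26 (adjusted p = 4.61e-13).

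Ebf2, Onecut2 and Ebf3 code for transcription factors of neuronal differentiation. Ebf2 read 9.35, 10.05 and 10.05 in P19 cells with NeuroD2 and 4.64, 4.18 and 4.69 in controls, and 4.12 to 4.44 in the 6 fibroblast arrays. Onecut2 read 9.34, 10.31 and 10.28 with NeuroD2 and 4.46, 4.49 and 4.87 without, and 3.95 to 4.60 in fibroblasts. Both stood high in the P19 cells with NeuroD2 and nowhere else among these 12 arrays, and both differences passed (-5.35, adjusted p = 1.16e-12, and -5.33, adjusted p = 1.45e-09). Ebf3 started from another level. It read 5.25, 5.01 and 5.11 in P19 controls and 8.34, 8.37 and 8.23 in fibroblast controls, and reached 9.39, 10.39 and 10.33 in P19 cells with NeuroD2 while fibroblasts stayed at 8.33, 8.24 and 8.08. The P19 cells thus passed the level that the fibroblasts held in both groups, with a difference of effects of -5.01 ± 0.25 (adjusted p = 7.34e-12).

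**Figure D2:**
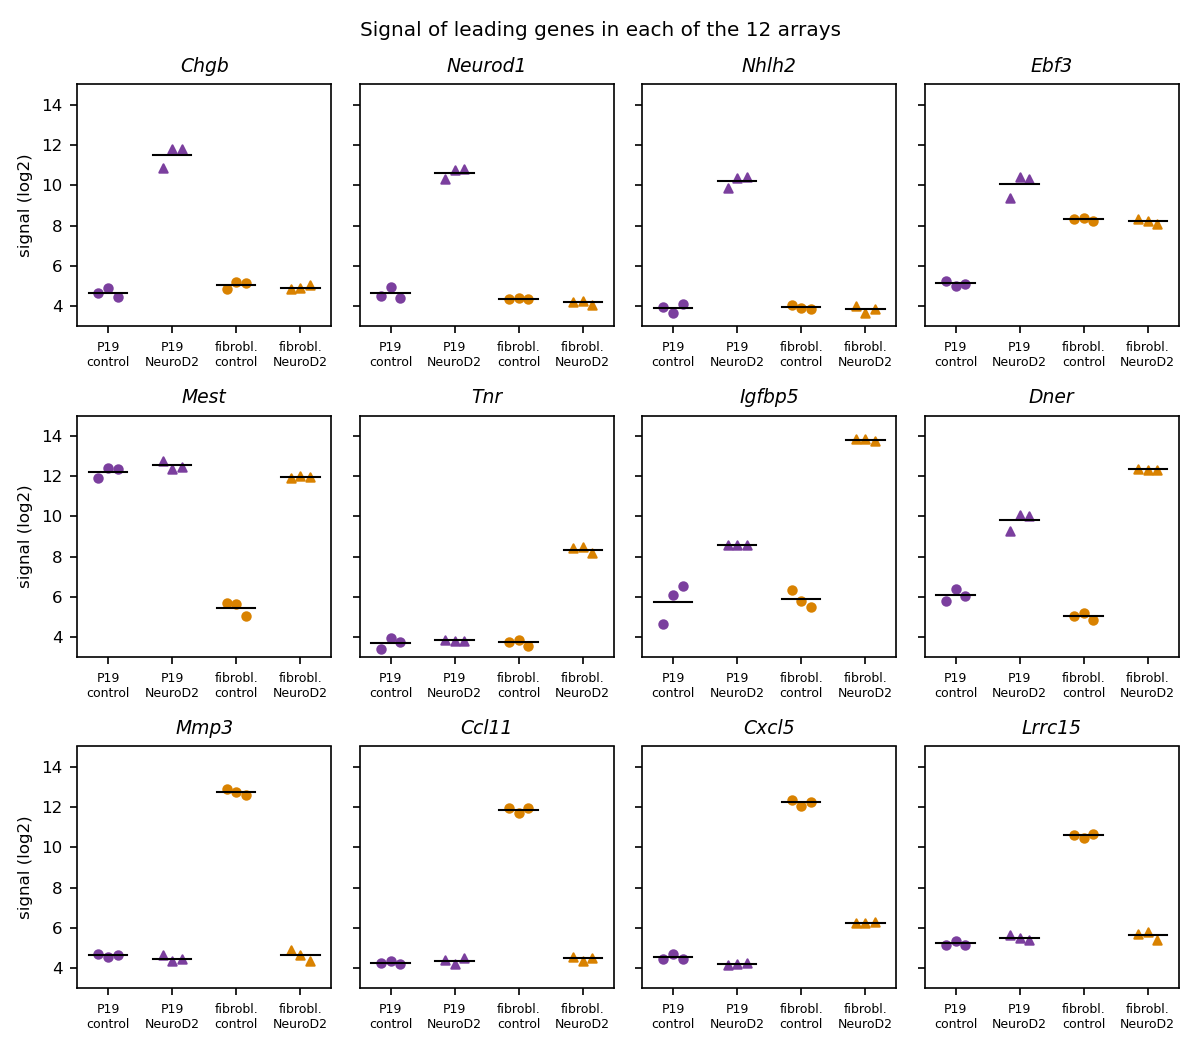
Signal (log2) of 12 genes in each of the 12 arrays, with controls as circles and NeuroD2 arrays as triangles, P19 cells in purple and fibroblasts in orange; bars are group means. Chgb, Neurod1 and Nhlh2 stand high in P19 cells with NeuroD2 only, Tnr in fibroblasts labelled NeuroD2 only, and Mmp3, Ccl11, Cxcl5 and Lrrc15 in fibroblast controls only.

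The promoters of genes from these different patterns are shown because NeuroD2 binds E-boxes. Each sequence is the 250 bases before the RefSeq start of the gene in GRCm38.p6, on the strand of the gene, and capitals mark any CAGATG or CAGCTG on either strand. CAGCTG reads the same on both strands, CAGATG is CATCTG on the other, and no stretch can match both motifs. Neurod1, Nhlh2, Chgb and Dll3, a Notch ligand, rose in P19 cells only by the calls. Tnr rose in fibroblasts only by the calls, and Igfbp5 rose in both and more in fibroblasts.
Neurod1 (chr2:79456637-79456886, minus strand): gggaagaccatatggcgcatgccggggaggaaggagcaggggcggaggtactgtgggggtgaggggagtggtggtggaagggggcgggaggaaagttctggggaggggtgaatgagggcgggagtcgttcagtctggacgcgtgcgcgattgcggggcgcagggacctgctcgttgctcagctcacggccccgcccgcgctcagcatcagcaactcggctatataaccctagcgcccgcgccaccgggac
Nhlh2 (chr3:102009895-102010144, plus strand): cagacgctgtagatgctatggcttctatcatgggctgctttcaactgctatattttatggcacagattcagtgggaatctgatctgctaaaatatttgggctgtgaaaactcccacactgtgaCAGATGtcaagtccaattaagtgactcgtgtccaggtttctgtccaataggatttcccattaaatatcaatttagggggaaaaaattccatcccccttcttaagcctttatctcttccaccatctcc
Chgb (chr2:132781392-132781641, plus strand): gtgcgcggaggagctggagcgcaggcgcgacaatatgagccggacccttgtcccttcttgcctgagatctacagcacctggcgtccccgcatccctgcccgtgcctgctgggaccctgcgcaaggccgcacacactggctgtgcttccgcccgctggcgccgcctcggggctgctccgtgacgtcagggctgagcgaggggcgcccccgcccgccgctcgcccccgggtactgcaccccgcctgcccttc
Dll3 (chr7:28301786-28302035, minus strand): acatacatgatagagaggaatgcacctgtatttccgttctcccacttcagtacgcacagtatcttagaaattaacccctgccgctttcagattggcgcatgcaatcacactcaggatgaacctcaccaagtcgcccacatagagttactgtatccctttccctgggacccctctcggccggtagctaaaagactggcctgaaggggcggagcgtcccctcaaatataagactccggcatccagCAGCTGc
Tnr (chr1:159523519-159523768, plus strand): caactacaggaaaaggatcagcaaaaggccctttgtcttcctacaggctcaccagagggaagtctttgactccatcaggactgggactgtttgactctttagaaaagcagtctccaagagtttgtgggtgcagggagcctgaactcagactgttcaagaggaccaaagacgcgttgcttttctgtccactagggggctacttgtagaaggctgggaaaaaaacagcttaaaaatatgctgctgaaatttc
Igfbp5 (chr1:72874866-72875115, minus strand): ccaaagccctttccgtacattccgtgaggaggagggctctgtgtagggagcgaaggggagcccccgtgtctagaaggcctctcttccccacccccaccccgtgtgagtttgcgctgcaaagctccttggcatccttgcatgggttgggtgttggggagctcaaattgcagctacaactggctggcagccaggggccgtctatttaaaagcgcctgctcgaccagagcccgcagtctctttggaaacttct
Nhlh2 held a CAGATG from 127 to 122 bases before the start and Dll3 a CAGCTG from 7 to 2 bases before it, and the other windows held neither. Of 11791 genes with a single window of this length, 11.4% held CAGATG and 12.6% CAGCTG. Among genes with a called difference and a single window, the shares were 9.25% and 15.4% for 227 genes that rose in P19 cells only, 14.2% and 17.5% for 325 that rose in fibroblasts only, and 10.9% and 17.7% for 266 that fell in fibroblasts only. These are counts of letters in the window, and binding was not measured here.

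Most neuronal lists had more members lower than higher in fibroblasts. Of 40 neuronal transcription factors measured, 12 were lower in fibroblasts, 0 higher and 28 not called (median difference -0.67, against 0.02 over all genes). In P19 cells 16 of the 40 rose and 0 fell, and in fibroblasts 2 rose and 1 fell. Without the batch 1 array that stood apart, 21 were lower. Insm1, a zinc finger factor of neurons and endocrine cells, rose by 3.63 ± 0.24 in P19 cells and differed by -0.05 in fibroblasts, where its 6 arrays lay between 4.47 and 5.04. Ebf2, Onecut2 and Ebf3 were in this list too. Of 13 neurogenic bHLH factors, 4 were lower (Neurod1, Nhlh2, Nhlh1 and Neurod4) and 1, Atoh8, higher. Neurod4 rose by 3.24 in P19 cells, from 3.87, 3.91 and 4.04 to 6.34, 7.68 and 7.54, and differed by -0.10 in fibroblasts. Its difference of -3.35 was -2.17 with the mean of its probe sets.

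**Figure D3:**
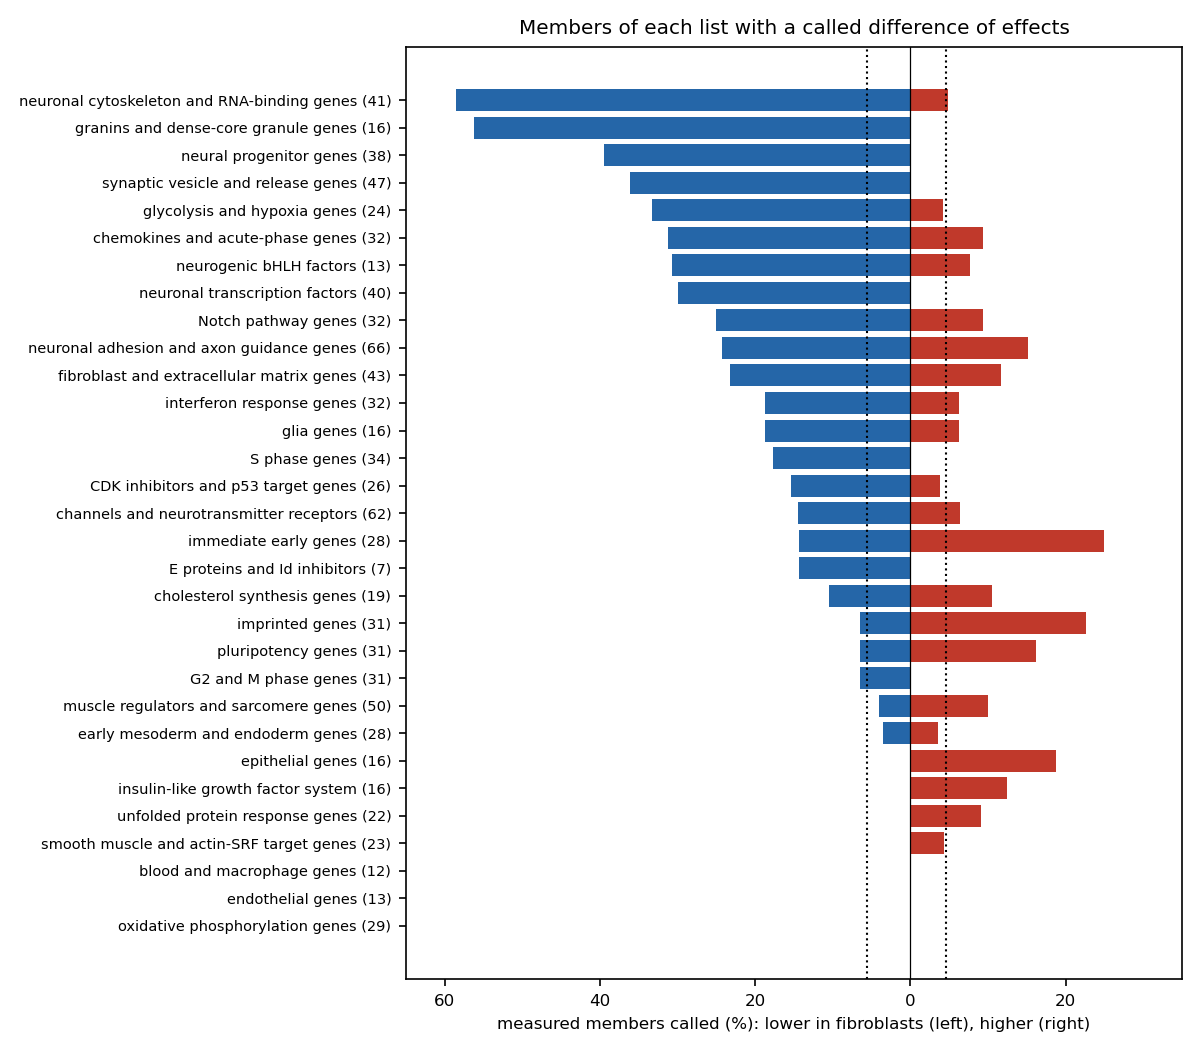
Share of the measured members of each list (number in brackets) with a called difference of effects, lower in fibroblasts to the left and higher to the right (x axis, percent); dotted lines mark the shares over all genes, 5.63% and 4.53%. Neuronal cytoskeleton genes (24 of 41) and granins (9 of 16) reach farthest left and immediate early genes (7 of 28, or 4 without any of 6 arrays) farthest right.

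The cytoskeleton of neurons followed the same order. Of 41 neuronal cytoskeleton and RNA-binding genes, 24 were lower in fibroblasts and 2 higher (median -1.54), and 28 and 2 without the batch 1 array. In P19 cells 31 rose and 0 fell, while in fibroblasts 6 rose and 4 fell. Map2, a microtubule protein of dendrites, read 10.36, 11.08 and 11.06 in P19 cells with NeuroD2 and 5.85, 7.09 and 7.03 in controls. In fibroblasts it read 4.73, 4.90 and 5.02 against 4.35, 4.31 and 4.43, which do not overlap but did not pass (0.52, adjusted p = 0.453). Dcx, a microtubule protein of migrating neurons, read 9.89, 10.72 and 10.56 in P19 cells with NeuroD2. Its controls read 7.73, 5.32 and 5.37, so control replicate 1 lay well above the rest, and all 6 fibroblast arrays lay between 4.09 and 4.32. The differences were -3.66 ± 0.47 for Map2 and -4.16 ± 0.64 for Dcx (limma adjusted p = 8.84e-06 and 9.69e-05), and that of Dcx was -2.75 with the mean of its probe sets. Stmn4, a regulator of microtubule assembly, and Elavl3, a neuronal RNA-binding protein, rose by 3.83 and 3.55 in P19 cells, against -0.06 and 0.45 in fibroblasts, which did not pass.

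Not every neuronal gene differed between the cells. Tubb3, the neuronal tubulin often used to mark early neurons, read 8.21, 8.23 and 8.15 in fibroblasts labelled NeuroD2 and 5.83, 6.0 and 7.26 in their controls. In P19 cells it read 11.25, 11.83 and 11.75 against 8.38, 9.70 and 9.12. It rose in both, by 1.83 ± 0.29 and 2.54 ± 0.29, and the groups did not overlap in either. The difference of -0.71 ± 0.41 did not pass (adjusted p = 0.404), which does not show that the rises were equal. Stmn2, another stathmin of neurons, rose by 0.96 in P19 cells, where its controls already read 10.08 to 11.04, and differed by -0.03 in fibroblasts; its difference of -1.0 missed the threshold (adjusted p = 0.0618) and passed without the batch 1 array. Taken as a set, the 4 neuron markers Tubb3, Dcx, Stmn2 and Elavl3 averaged 10.54 to 11.28 in P19 cells with NeuroD2 and 8.03 to 8.30 in controls, and 5.94 to 6.05 against 5.28 to 5.55 in fibroblasts. In such bulk samples, fewer cells of a type and less RNA per cell cannot be told apart.

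Part of the genes of synapses and secretion were lower in fibroblasts as well. Of 47 synaptic vesicle and release genes, 17 were lower, 0 higher and 30 not called (median -0.27), and 17 and 3 with batch 1 controls, with 21 that rose in P19 cells against 4 in fibroblasts. Syp, a membrane protein of synaptic vesicles, read 9.18, 9.73 and 9.67 in P19 cells with NeuroD2 and 5.85, 5.93 and 5.87 in controls, and 5.27 to 5.47 in all fibroblast arrays. Slc17a6, the transporter that loads glutamate into vesicles, rose by 3.44 in P19 cells and differed by -0.23 in fibroblasts. Pclo, a scaffold of the release site, rose by 3.20 against 0.08. The differences of Syp and Pclo, -3.64 and -3.12, were -1.67 and -1.06 with the mean of all their probe sets. Dnm1, the GTPase that pinches vesicles from the membrane, moved in both cells. It fell in fibroblasts from 10.95, 11.18 and 11.14 to 8.19, 8.01 and 8.10 and rose in P19 cells from 6.67, 6.85 and 6.70 to 7.58, 7.82 and 7.98, so the cells came closer from opposite sides.

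Of 16 granins and dense-core granule genes, 9 were lower in fibroblasts and 0 higher (median -1.68), and 11 without the batch 1 array. In P19 cells 11 of them rose, and in fibroblasts 0 rose and 2 fell. Scg2, a granin cut into neuropeptides, rose in P19 cells from 4.55, 4.78 and 4.58 to 8.50, 8.88 and 8.78. In fibroblasts it fell from 6.02, 6.27 and 6.46 to 4.45, 4.27 and 4.39, so neither pair of groups overlapped and the signs were opposite. The difference was -5.96 ± 0.36 (limma adjusted p = 1.83e-10). Scg3, which holds granins at the granule membrane, and Scg5, a chaperone of prohormone convertase, rose by 3.76 and 2.12 in P19 cells, against -0.04 and -0.21 in fibroblasts.

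Ion channels and receptors were mixed. Of 62 channels and neurotransmitter receptors, 9 were lower and 4 higher in fibroblasts (median -0.09), 14 and 7 without the batch 1 array, 16 and 3 with batch 1 controls, and 5 and 3 without replicate 2 of the P19 cells with NeuroD2. Kcnd3, a potassium channel of transient currents, read 7.83, 8.10 and 8.11 in P19 cells with NeuroD2 and 4.60 to 4.63 in controls, and 4.61 to 4.81 in fibroblasts. Its difference of -3.42 was -0.96 with the mean of its probe sets. Chrnb4, a nicotinic receptor subunit of ganglia, rose by 3.07 in P19 cells and differed by 0.00 in fibroblasts, and its difference of -3.07 was -2.03 with the mean of its probe sets. Cacna1g, a T-type calcium channel, rose by 0.91 in P19 cells and fell by 1.08 in fibroblasts. Cacna1a, the pore of the P/Q-type calcium channel of synapses, rose in fibroblasts from 5.64, 5.66 and 5.85 to 7.65, 7.52 and 7.59. Its P19 arrays lay between 6.06 and 6.20 with no call. The call of its difference ended with the mean of its probe sets (0.46) and with batch 1 controls (0.63).

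**Figure D4:**
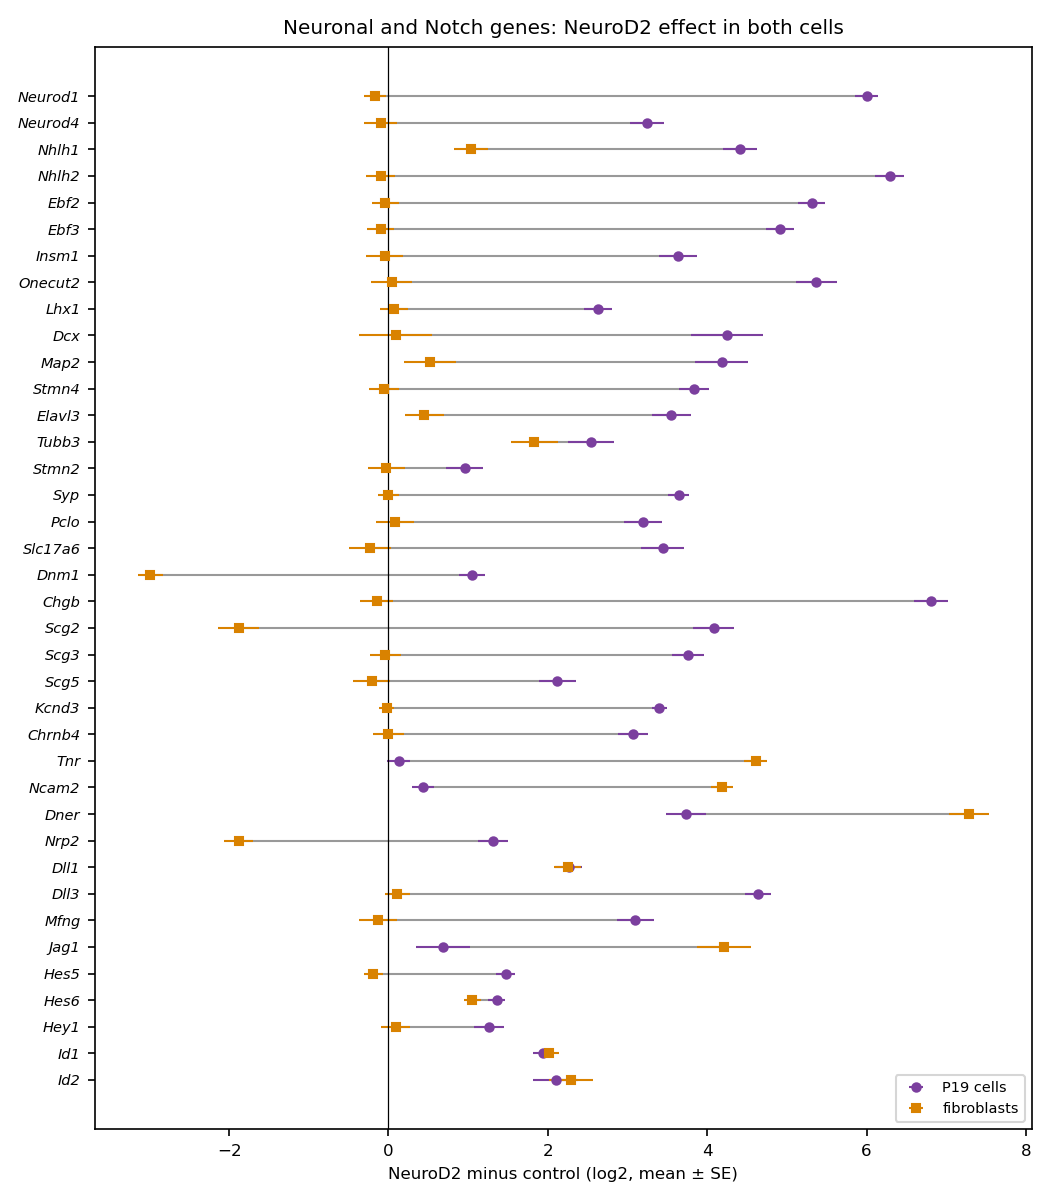
NeuroD2 effect (x axis, log2, mean ± SE, 3 arrays per group) of 38 neuronal, Notch and Id genes in P19 cells (circles) and fibroblasts (squares). Most genes moved in P19 cells only, Tnr, Ncam2 and Jag1 sit far to the right in fibroblasts, and the symbols of Dll1, Id1 and Id2 nearly coincide.

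Neuronal adhesion and axon guidance genes were the neuronal list with most members on the other side. Of 66, 10 were higher and 16 lower in fibroblasts (median -0.21), with 26 that rose in P19 cells and 22 in fibroblasts. Tnr, tenascin-R of the matrix around neurons, read 8.41, 8.45 and 8.20 in fibroblasts labelled NeuroD2 and 3.78, 3.87 and 3.57 in controls, and 3.42 to 3.97 in the 6 P19 arrays. It stood high in that group alone, with an effect of 4.61 ± 0.14 against 0.13 ± 0.14 in P19 cells and a difference of 4.49 ± 0.20 (adjusted p = 1.59e-12). Ncam2, a neural cell adhesion molecule, rose from 4.25, 4.31 and 4.51 to 8.76, 8.33 and 8.54 in fibroblasts. Its P19 arrays read 4.45, 4.82 and 4.71 against 4.06, 4.40 and 4.24, a gap of 0.43 that did not pass (adjusted p = 0.059). The difference of 3.76 was 2.24 with the mean of its probe sets. Nrp2, a receptor for semaphorins, went against both, with an effect of -1.88 in fibroblasts and rising by 1.31 in P19 cells.

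Dner, a transmembrane Notch ligand of neurons, was among the genes that rose in both cells. It read 12.36, 12.31 and 12.32 in fibroblasts labelled NeuroD2 and 5.07, 5.18 and 4.87 in their controls, and 9.27, 10.08 and 10.03 against 5.77, 6.37 and 6.05 in P19 cells. Neither pair overlapped, and the rise was 7.29 ± 0.25 in fibroblasts against 3.73 ± 0.25 in P19 cells (difference 3.56, adjusted p = 3.34e-07).

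Notch pathway genes split by ligand. Of 32, 3 were higher and 8 lower in fibroblasts (median -0.23), and 4 and 11 without the batch 1 array. Dll1, a Delta ligand, rose in both cells by nearly the same amount, from 6.06, 6.20 and 6.17 to 8.43, 8.37 and 8.37 in fibroblasts and from 7.02, 7.70 and 7.44 to 9.20, 9.77 and 9.97 in P19 cells. Its difference was -0.01 ± 0.24 (adjusted p = 0.995). Dll3, a Delta-type ligand that acts inside the cell, read 11.27, 11.93 and 11.70 in P19 cells with NeuroD2 and 7.0, 7.05 and 6.94 in controls, and 5.16 to 5.63 in fibroblasts, and only the P19 cells rose (difference -4.53, adjusted p = 8.39e-12). Jag1, a Jagged ligand, rose from 8.08, 8.16 and 7.87 to 12.24, 12.19 and 12.29 in fibroblasts, and in P19 cells read 9.94, 9.96 and 10.00 against 9.42, 9.19 and 9.25, which did not overlap and did not pass (0.68, adjusted p = 0.306). The difference of Jag1 was 3.53, and 2.32 with batch 1 controls. Mfng, a sugar transferase that modifies Notch, rose by 3.10 in P19 cells against -0.13 in fibroblasts.

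The targets and inhibitors were likewise divided. Hes5 and Hey1, repressors downstream of Notch, rose by 1.47 and 1.26 in P19 cells and differed by -0.19 and 0.09 in fibroblasts (differences -1.66 and -1.17, limma adjusted p = 5.2e-07 and 0.0043). Hes6, an inhibitor of Hes1 that favours neurogenesis, rose in both, by 1.36 and 1.05. Hes1 itself passed in neither, with 0.25 in P19 cells and -0.18 in fibroblasts. Id1 read 11.83, 11.75 and 11.77 in fibroblasts labelled NeuroD2 against 9.71, 9.79 and 9.79, and 10.75, 10.86 and 10.82 against 8.74, 8.83 and 9.03 in P19 cells. The groups were apart in both, and the rises of 2.02 and 1.94 differed by 0.08 ± 0.18 (adjusted p = 0.932). Id2 rose by 2.29 and 2.10, and Id3 passed in neither. Of the 7 E proteins and Id genes, 1 had a called difference, Tcf12, an E protein, at -0.95, and that call ended in 6 of the fits that left out an array. Without the batch 1 array 3 of the 7 were lower. With batch 1 controls 5 were lower and 1 higher, Id1 (-0.51) and Id3 (-0.81) among the lower (adjusted p = 0.0447 and 0.0237), so the near-equal rises of Id1 hold for the controls of batches 2 and 3.

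Neural progenitor genes were lower in fibroblasts in 15 of 38 cases and higher in 0 (median -0.58), and 20 were lower without the batch 1 array. Olig2, a bHLH factor of progenitors of motor neurons and oligodendrocytes, read 6.38, 7.43 and 7.91 in P19 cells with NeuroD2 and 3.65 to 3.97 in the other 9 arrays. Pax6, a homeobox factor of the neural tube and eye, rose by 3.25 in P19 cells against -0.05 in fibroblasts; its difference of -3.30 was -1.15 with the mean of its probe sets and -2.09 with batch 1 controls. Sox9, a factor of neural stem cells and cartilage, fell by 2.67 in fibroblasts, from 9.40, 9.53 and 9.43 to 6.77, 6.89 and 6.69, and rose in P19 cells by 1.00. Emx2, a homeobox factor of the forebrain, fell by 1.01 in fibroblasts and rose by 1.69 in P19 cells. Sox2 passed in neither cell. Of 16 glia genes, 3 were lower and 1 higher, 3 and 3 without the batch 1 array, and 2 and 3 with batch 1 controls. Slc1a3, a glutamate transporter of astrocytes, had a difference of 1.77, and that of Mbp, a myelin protein, was -2.93, or -1.21 with the mean of its probe sets.

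Among the rises that were called in fibroblasts and not in P19 cells, Mest was the largest. Mest, an imprinted gene of growing mesoderm that codes for a hydrolase, read 11.91, 12.02 and 11.93 in fibroblasts labelled NeuroD2 and 5.69, 5.66 and 5.06 in their controls. All 6 P19 arrays were high, at 12.76, 12.36 and 12.43 with NeuroD2 and 11.91, 12.37 and 12.36 without. The fibroblasts labelled NeuroD2 thus reached the range of the P19 cells, with an effect of 6.48 ± 0.19 against 0.30 ± 0.19 and a difference of 6.18 ± 0.26 (limma adjusted p = 7.49e-13). Of 31 imprinted genes, 7 were higher and 2 lower (median 0.18), 7 and 5 without the batch 1 array, and 7 and 4 without replicate 3 of the P19 controls. They went in different directions: Nnat, a small membrane protein of developing neurons, rose in P19 cells from 6.69, 9.05 and 9.11 to 13.23, 13.11 and 13.09 and read 4.46 to 5.36 in fibroblasts. Control replicate 1 of the P19 cells was again apart. Grb10, an adaptor that restrains insulin and growth factor receptors, fell in P19 cells by 1.55 and differed by 0.66 in fibroblasts, which did not pass.

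Igfbp5, a secreted binder of insulin-like growth factors, had the largest rise of all named genes in fibroblasts. It read 13.81, 13.82 and 13.73 with NeuroD2 and 6.34, 5.78 and 5.48 without, and 8.55, 8.58 and 8.59 against 4.63, 6.08 and 6.52 in P19 cells. It rose in both without overlap, by 7.92 ± 0.38 and 2.83 ± 0.38, and the difference of 5.09 ± 0.53 passed (adjusted p = 6.27e-07). Igf1, the growth factor, rose in fibroblasts from 7.75, 8.09 and 8.07 to 11.54, 11.69 and 11.60 and differed by 0.00 in P19 cells. Those were the 2 called genes of the 16 in the insulin-like growth factor list, and 5 were higher and 2 lower without the batch 1 array.

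Other secreted and signalling genes rose in fibroblasts with no call in P19 cells. Notum, an enzyme that inactivates Wnt proteins, read 9.98, 9.99 and 9.90 with NeuroD2 in fibroblasts and 5.94, 5.99 and 5.90 without, and 5.86 to 6.04 in P19 cells. Bmp4, a growth factor of the TGF-beta family, read 10.27, 9.89 and 9.97 against 5.77, 5.78 and 6.29, while the P19 groups overlapped between 6.64 and 8.05. Only the fibroblasts labelled NeuroD2 were high for Notum, while Bmp4 in P19 cells lay between the fibroblast groups. The differences were 3.94 ± 0.14 and 4.30 ± 0.38 (limma adjusted p = 4.32e-14 and 6.66e-08). Ackr3, a scavenger receptor for the chemokine Cxcl12, rose in fibroblasts from 4.67, 4.79 and 4.34 to 9.71, 9.61 and 9.43. In P19 cells it read 9.56, 8.96 and 8.86 against 7.67, 8.56 and 8.33, which did not overlap and did not pass (0.94, adjusted p = 0.125). Fap, a surface protease of activated fibroblasts, rose by 3.86 in fibroblasts against -0.13 in P19 cells, where it read 3.92 to 4.54. Mfap3l, a membrane protein, rose by 3.17 in fibroblasts, and its effect of -1.0 in P19 cells did not pass.

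Icosl, the ligand of a costimulatory receptor of T cells, and Tmeff2, a transmembrane protein with follistatin domains, rose in fibroblasts and fell in P19 cells. Icosl read 9.77, 9.78 and 9.83 against 6.29, 6.58 and 6.28 in fibroblasts and 7.08, 7.15 and 7.18 against 7.86, 7.82 and 7.75 in P19 cells. Neither pair overlapped, and the difference was 4.09 ± 0.15 (adjusted p = 5.38e-14), or 2.05 with the mean of its probe sets. Tmeff2 rose by 3.13 and fell by 0.82, with 2.58 in place of 3.95 for the difference when its probe sets were averaged. Slc35f1, a member of a family of membrane transporters, rose in both cells, by 4.60 in fibroblasts and 0.92 in P19 cells. Eln, elastin of elastic fibres, rose in fibroblasts from 6.25, 6.34 and 6.16 to 9.53, 9.77 and 9.59 with no call in P19 cells (-0.15).

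The largest negative difference of all named genes came from a fall in fibroblasts. Mmp3, a protease that digests matrix and is made by activated fibroblasts, read 12.90, 12.74 and 12.58 in fibroblast controls and 4.90, 4.67 and 4.38 in fibroblasts labelled NeuroD2. All 6 P19 arrays lay between 4.35 and 4.72. The fibroblasts labelled NeuroD2 thus overlapped the P19 arrays, with an effect of -8.09 ± 0.14 against -0.17 ± 0.14 and a difference of -7.92 ± 0.20 (limma adjusted p = 2.48e-16). The chemokine Ccl11 read 11.94, 11.68 and 11.93 in fibroblast controls and 4.55, 4.38 and 4.51 with NeuroD2, Ccl8 read 11.47, 11.15 and 11.53 against 5.39, 5.59 and 5.37, and Cxcl5 read 12.36, 12.05 and 12.27 against 6.26, 6.22 and 6.28. In P19 cells these 3 genes lay between 4.18 and 5.34. High values were found in the fibroblast controls alone, and the differences were -7.46 ± 0.17, -5.79 ± 0.16 and -5.66 ± 0.18 (adjusted p = 7.28e-17, 5.15e-16 and 5.45e-15). Lrrc15, a membrane protein of activated fibroblasts, read 10.63, 10.45 and 10.68 against 5.69, 5.81 and 5.40, and its difference was -5.24 ± 0.16.

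Of 32 chemokines and acute-phase genes, 10 were lower and 3 higher in fibroblasts (median -0.12), with 11 that fell in fibroblasts and 2 in P19 cells. Without the batch 1 array 12 were lower and 5 higher. Lcn2, a protein that binds bacterial siderophores and is released in inflammation, fell by 3.96 in fibroblasts, and differed by -0.28 in P19 cells. Of 43 fibroblast and extracellular matrix genes, 10 were lower and 5 higher (median -0.37), and 16 and 7 without the batch 1 array. With batch 1 controls 9 were lower and 10 higher, and without replicate 1 of the P19 controls 11 and 8, with the median at 0.07. The higher count was 3 when any of 6 other arrays was left out. Mmp3 and Eln were the extremes, and Col11a1, a fibrillar collagen of cartilage, fell by 1.72 in fibroblasts and rose by 0.99 in P19 cells. Col1a1, the main collagen of fibroblasts, read 13.95, 13.93 and 13.74 against 13.59, 13.49 and 13.57 and passed in neither cell. Of 32 interferon response genes, 6 were lower and 2 higher (median -0.02), 6 and 6 without the batch 1 array, and 5 and 5 with a shift to a common median. Among them were Rtp4, Isg20 and Ifit3, which fell by 1.23, 1.47 and 1.33 in fibroblasts, and Bst2, a membrane tether of viruses, which fell by 1.34 in P19 cells and differed by 0.20 in fibroblasts, a difference of 1.54 that was 1.0 with batch 1 controls.

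Immediate early genes went both ways, with 7 higher and 4 lower of 28 (median 0.37), and 11 and 7 without the batch 1 array. Leaving out replicate 2 or 3 of the P19 cells with NeuroD2 gave 4 higher and 5 lower. Leaving out replicate 2 or 3 of the fibroblast controls, or replicate 1 or 2 of the fibroblasts labelled NeuroD2, gave 4 and 4. Fos, a subunit of the AP-1 factor, rose in fibroblasts from 8.17, 8.28 and 8.01 to 10.91, 10.97 and 10.58 and fell in P19 cells from 8.83, 8.01 and 7.76 to 7.21, 6.61 and 6.95. Neither pair overlapped, and the difference was 3.94 ± 0.46 (limma adjusted p = 2.86e-06). Jun, the partner of Fos in AP-1, moved the other way in each cell, falling by 1.70 in fibroblasts and rising by 0.83 in P19 cells. Nr4a2, a nuclear receptor of dopamine neurons, rose in fibroblasts from 7.91, 7.40 and 7.12 to 10.60, 10.57 and 10.62; its difference of 2.66 was 1.36 with the mean of its probe sets. Dusp6, a phosphatase that switches off ERK, fell by 2.63 in fibroblasts and differed by -0.11 in P19 cells, and Klf4, a zinc finger factor, fell by 2.03 against 0.06.

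Some genes of proliferation were lower in fibroblasts. Of 34 S phase genes, 6 were lower and 0 higher (median -0.28). In fibroblasts 12 of them fell, and in P19 cells 0 passed by limma (2 at an unadjusted p under 0.05). Without the batch 1 array 12 were lower and 2 higher. With batch 1 controls 22 were lower, when more of all genes were lower as well. Mcm6, part of the helicase that opens replication origins, read 8.55, 8.47 and 8.40 in fibroblasts labelled NeuroD2 and 10.21, 10.25 and 10.02 in controls. In P19 cells it read 12.57, 12.32 and 12.35 against 12.58, 12.29 and 12.37, so the fibroblasts fell from a lower level while the P19 groups overlapped. The difference was -1.69 ± 0.18 (limma adjusted p = 8.95e-07). Cdt1, which loads that helicase, fell by 2.26 in fibroblasts and differed by -0.43 in P19 cells. Ccnd1, the cyclin that drives entry into the cycle, fell by 1.69 in fibroblasts and differed by 0.45 in P19 cells. Among 31 G2 and M phase genes the count was 2 lower, against 5.63% of all genes. It was 9 without the batch 1 array, when 24.8% of all genes were called, split nearly evenly between higher and lower. Without replicate 3 of the fibroblast controls 4 of these genes were lower. With batch 1 controls, which include the P19 array that stood apart, 28 of these genes were lower, when more of all genes were lower too. So the counts moved with the controls used. Cdc25b, a phosphatase that starts mitosis, fell by 1.44 in fibroblasts. With batch 1 controls the differences grew, from -1.69 to -2.54 for Mcm6, -1.83 to -2.79 for Cdt1, -2.14 to -3.52 for Ccnd1 and -1.19 to -2.03 for Cdc25b, and that of Cdt1 was -1.13 with the mean of its probe sets.

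Of 26 CDK inhibitors and p53 target genes, 4 were lower and 1 higher (median -0.22), and 7 and 2 without the batch 1 array. Gadd45a, a stress gene that slows the cycle, fell in fibroblasts from 9.98, 9.96 and 9.84 to 8.28, 8.25 and 8.24 and differed by 0.55 in P19 cells, which did not pass. Gadd45g, its relative, rose by 1.53 in P19 cells with no call in fibroblasts (0.48), and its call ended with batch 1 controls (-0.32). Cdkn1a, an inhibitor of cyclin kinases, rose by 0.57 in P19 cells and differed by 0.13 in fibroblasts. That difference of -0.44 did not pass, and Cdkn1c passed in neither cell.

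Metabolic lists differed among themselves. Of 24 glycolysis and hypoxia genes, 8 were lower and 1 higher (median -0.24), and 11 and 4 without the batch 1 array. Slc2a1, a glucose importer, and Hk2, the first enzyme of glycolysis, had effects of -1.19 and -1.36 in fibroblasts, where both fell, and differed by 0.04 and -0.16 in P19 cells. Eno2, the enolase of neurons, fell by 1.72 in fibroblasts and differed by 0.19 in P19 cells, so this neuronal enzyme fell where most neuronal genes were not called. Its difference of -1.92 was -3.95 with batch 1 controls. With those controls 18 of the 24 were lower, when more of all genes were lower as well. Of 19 cholesterol synthesis genes, 2 were higher and 2 lower, and 2 and 10 without the batch 1 array. Ebp, an isomerase of that pathway, rose by 0.91 in fibroblasts and differed by -0.27 in P19 cells. Of 22 unfolded protein response genes, 2 were higher and 0 lower (median 0.57), and 10 were higher without the batch 1 array. Without replicate 1 of the P19 cells with NeuroD2, 1 was higher and 4 lower, and without replicate 3 of that group 8 were higher. Without replicate 1 of the P19 controls 5 were higher, so the counts of this list moved with single arrays. Its median difference stayed between 0.32 and 0.72 in all fits. Edem1, which sends misfolded proteins for degradation, rose by 1.10 in fibroblasts and differed by -0.34 in P19 cells, a difference of 1.43 that was 0.94 with batch 1 controls. Of 29 oxidative phosphorylation genes, 0 were called by limma for the difference or in either cell (0 at an unadjusted p under 0.05), and 1 was lower without the batch 1 array and 7 with batch 1 controls.

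Some differences came from falls in P19 cells. Dcn, decorin of the matrix, read 6.80, 5.67 and 5.76 in P19 cells with NeuroD2 and 9.54, 8.59 and 8.78 in controls. In fibroblasts it read 13.79, 13.76 and 13.79 against 14.31, 14.28 and 14.30, which do not overlap and did not pass (-0.51, adjusted p = 0.184). The effect of -2.89 ± 0.22 in P19 cells gave a difference of 2.38, or 1.13 with the mean of its probe sets. Of 31 pluripotency genes, 5 were higher and 2 lower (median 0.18), with 8 that fell in P19 cells, and 8 were higher without the batch 1 array. Leaving out 1 of the 12 arrays lowered the higher count to 1 to 3 for 9 of them. It was 1, with 1 lower, without replicate 2 of the fibroblast controls, and 1, with 2 lower, without replicate 2 of the P19 controls. Dnmt3l, a partner of the enzymes that methylate DNA in early cells, fell from 7.34, 8.01 and 7.83 to 5.33, 5.71 and 5.75 in P19 cells, into the range of the fibroblasts (5.32 to 5.96). Pou5f1, the central factor of pluripotent cells, read 13.32, 13.35 and 13.44 against 13.81, 13.69 and 13.72. These values did not overlap and the gap did not pass (-0.37, adjusted p = 0.209), and Nanog passed in neither cell.

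Some epithelial genes gave the same direction. Of 16 measured, 3 were higher and 0 lower (median 0.47), with 6 that fell in P19 cells and 0 called by limma in fibroblasts (0 at an unadjusted p under 0.05), and 7 were higher without the batch 1 array. The count was 5 without replicate 3 of the fibroblast controls, and 5 without replicate 1 of either P19 group. Esrp1, a splicing regulator of epithelia, fell from 6.61, 8.09 and 7.96 to 5.26, 5.33 and 5.60 in P19 cells and read 4.43 to 4.84 in fibroblasts. Cldn6, a tight junction protein of embryonic epithelia, fell by 1.91 in P19 cells and differed by 0.13 in fibroblasts. Its call ended with batch 1 controls (0.17). The mean of 4 epithelial markers was 8.89 to 9.62 in P19 cells with NeuroD2 and 8.82 to 10.09 in their controls, against 4.41 to 5.27 in fibroblasts, and its part in these results was not tested.

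Opposite responses were read from genes called in both cells with different signs. Of the 93 that rose in P19 cells and fell in fibroblasts, Met, the receptor of hepatocyte growth factor, read 9.87, 9.87 and 9.84 in P19 cells with NeuroD2 and 7.16, 8.14 and 8.29 in controls. In fibroblasts it read 5.98, 5.92 and 5.78 against 8.79, 8.79 and 8.80. The groups did not overlap in either cell, and only the P19 cells moved up (difference -4.89 ± 0.34, limma adjusted p = 2.17e-09). Dpysl3, a collapsin response mediator of growth cones, rose in P19 cells from 8.03, 9.53 and 9.60 to 11.39, 12.23 and 12.19 and fell in fibroblasts from 12.32, 12.33 and 12.35 to 10.64, 10.63 and 10.66. Here the levels crossed. Cracd, an actin regulator, rose by 2.75 and fell by 2.40, but its difference of -5.15 was -1.25 with the mean of its probe sets. Atp8b4, a flippase-like ATPase, rose by 2.61 and fell by 1.98, with a difference of -4.60 that was -2.65 on the mean of its probe sets. P2rx3, an ATP-gated channel of sensory neurons, rose by 1.85 and fell by 1.55.

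Of the 50 genes that fell in P19 cells and rose in fibroblasts, Col18a1, a basement membrane collagen, read 10.78, 10.83 and 10.60 in fibroblasts labelled NeuroD2 and 7.50, 7.54 and 7.30 in controls, and 9.72, 9.55 and 9.54 against 10.40, 10.83 and 10.90 in P19 cells. The fibroblasts labelled NeuroD2 came to the level of the P19 controls (difference 4.39 ± 0.24, adjusted p = 4.85e-11). Hrh1, the H1 histamine receptor, fell from 7.60, 7.94 and 7.75 to 6.46, 6.06 and 6.23 in P19 cells and rose from 4.92, 5.07 and 4.67 to 6.39, 6.34 and 6.20 in fibroblasts, so that the NeuroD2 groups of both cells overlapped. Gdnf, a survival factor of neurons, fell by 1.18 and rose by 1.08. B3gnt7, a transferase of sugar chains, fell by 1.07 and rose by 1.27, and its difference of 2.35 was 1.20 with batch 1 controls. It averaged 7.92 in P19 cells with NeuroD2 and 7.91 in P19 controls of batch 1, so its fall holds for the batch 3 controls. Papss2, which makes the donor of sulfate groups, fell by 1.06 and rose by 1.06, and its difference of 2.11 was 1.12 with the mean of its probe sets, while its P19 groups overlapped.

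**Figure D5:**
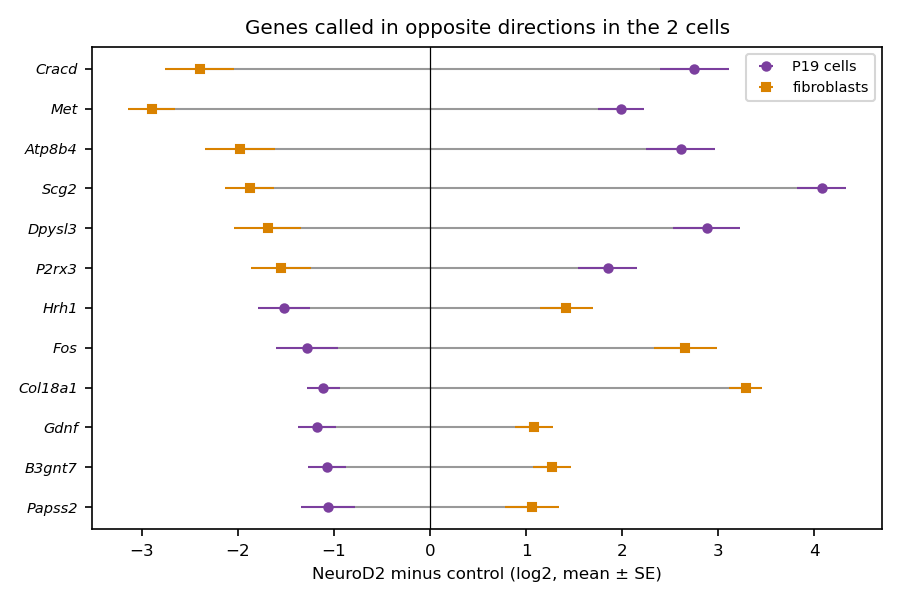
NeuroD2 effect (x axis, log2, mean ± SE, 3 arrays per group) in P19 cells (circles) and fibroblasts (squares) of the 12 genes whose smaller effect was largest among genes called in opposite directions, 6 of each kind. Scg2, at 4.08 and -1.88, spans the widest gap among those that rose in P19 cells, and Col18a1, at -1.11 and 3.29, among those that fell.

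Genes called in the same direction in both cells could still differ in size. Nhlh1, a bHLH factor close to Nhlh2, rose in both: from 4.28, 4.34 and 4.31 to 7.92, 9.03 and 9.19 in P19 cells and from 4.34, 4.04 and 4.34 to 5.29, 5.52 and 5.04 in fibroblasts. Both groups of each cell were apart, with rises of 4.41 and 1.04 and a difference of -3.36 ± 0.30 (limma adjusted p = 9.54e-08). Slc7a2, a transporter of basic amino acids, had effects of -3.80 in fibroblasts and -0.81 in P19 cells. Aspn, a small matrix proteoglycan, had effects of -2.49 and -0.43, and Rab32, a GTPase of melanosome traffic, of -2.59 and -0.67.

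The level from which each gene started was read in the cells that made no call. The contrast that chose these genes uses the same control arrays, so the shares describe the sets and are no further test. Whether the starting level had a part in the calls was not tested. Of the 405 genes that rose in P19 cells only by the calls, 294 (72.6%) lay under 7.03 in fibroblast controls, against 50.4% of all genes, and their median there was 5.65. Of the 518 that rose in fibroblasts only by the calls, 188 (36.3%) lay under 7.03 in P19 controls, against 49.6% of all genes, with a median of 8.08. So most of the first set was dim in fibroblasts, as with Chgb, while most of the second was already above the middle in P19 cells, as with Mest. For falls in fibroblasts only (441 genes) the share under 7.03 in P19 controls was 47.6%, and for falls in P19 cells only (168 genes) the share in fibroblast controls was 52.4%, both near those of all genes.

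Lists of other lineages varied. Of 28 early mesoderm and endoderm genes, 1 was higher (Bmp4) and 1 lower (Lhx1, a homeobox factor that is also in the neuronal list and rose by 2.63 in P19 cells). Without the batch 1 array the counts were 3 and 3. Of 50 muscle regulators and sarcomere genes, 5 were higher and 2 lower (median 0.09), against 4.53% and 5.63% of all genes, and 7 and 6 without the batch 1 array. Ldb3, a protein of the sarcomere's Z-disc, rose in fibroblasts by 2.77, and its difference of 2.66 was 1.01 with the mean of its probe sets. Myl4, a myosin light chain of embryonic muscle, rose in fibroblasts from 5.63, 5.49 and 5.78 to 7.86, 8.02 and 7.75, with a difference of 2.27 that was 1.09 with the mean of its probe sets. Myog, the factor that commits muscle cells, read 5.05 to 5.48 in all 12 arrays and passed in neither cell. Of 23 smooth muscle genes, 1 was higher, against 4.53% of all genes. Without the batch 1 array 5 were higher, when 24.8% of all genes were called, split nearly evenly between higher and lower. Without replicate 1 of the P19 controls 9 were higher and the median rose from 0.06 to 0.61, and with batch 1 controls 6 were higher. Of 13 endothelial and 12 blood and macrophage genes, 0 were called by limma for the difference (0 at an unadjusted p under 0.05).

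At the edge of the threshold, Smpd1 and Sparc, with differences of 0.95 and 1.10, were just inside (adjusted p = 0.0498 and 0.0499), and Pla2g5 and Bcl7a, at 0.71 and 1.01, just outside (0.0501 and 0.0502). The named genes included 121 with a called difference. Of those, 71 had 138 further probe sets, of which 88 were called in the same direction, 0 in the other and 50 not called.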

How the data were processed

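RNA was measured on Affymetrix mouse arrays, 1 per sample. The authors deposited log2 signals that already share their quartiles across arrays. How background was treated and probes summarised is not stated in the labels, and the submitters' processing notes name limma alone. The sources used here hold no detection calls. Low signals are compressed, so changes of dim genes are understated, and the number of arrays limits the precision. Levels of different probe sets were not compared.

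Of 45101 probe sets, 34945 had a single gene symbol in the platform annotation (9160 had none, 932 several and 64 were Affymetrix controls). Each of 18193 genes was represented by its brightest probe set (mean of 24 arrays). A mean per group was fitted over all 24 arrays in 8 groups with limma 3.58.1 in R 4.3.3 (lmFit and eBayes, 16 residual and 3.89 prior degrees of freedom), which was tested on simulated data. Tests were two-sided, with Benjamini-Hochberg adjustment over all genes and a threshold of 0.05. "Rose", "fell", "higher", "lower" and "called" for gene counts refer to it.

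Of 976 entries in 31 gene lists, 918 were measured. The members, the lists and the rule for named genes were chosen with earlier results of these data known. The rule named Neurod2, Myod1, Chgb, Neurod1, Mest and Tnr; the 12 largest called differences each way with a group mean above 7.03 and no overlap in at least 1 cell; genes called in both cells, 6 for each opposite pattern and 4 for each shared one; up to 4 called members of each list; and a fixed set of Notch, Id, lineage and cell cycle genes. Clone and predicted symbols were left out. Promoters came from RefSeq. Alternatives changed the scaling, a filter on dim genes, the probe sets, the arrays in the fit, the prior, a replicate block and the controls, and left out each array in turn.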

Additional observations from a re-analysis of the deposited data

Results flagged for a closer look

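The difference between the effects was itself tested, as 1 limma contrast over 4 groups. It passed for 825 genes with a higher effect in fibroblasts than in P19 cells and 1024 with a lower one. Among genes called in both cells with different signs, those named here had the largest smaller effect. Those that rose in P19 cells and fell in fibroblasts had differences of -5.15 (Cracd), -4.89 (Met), -4.60 (Atp8b4), -5.96 (Scg2), -4.58 (Dpysl3) and -3.40 (P2rx3) on the log2 scale. Those that fell in P19 cells and rose in fibroblasts had 2.94 (Hrh1), 3.94 (Fos), 4.39 (Col18a1), 2.26 (Gdnf), 2.35 (B3gnt7) and 2.11 (Papss2). Cell type and batch cannot be told apart in any of them. With the mean of their probe sets, the differences of Cracd, Atp8b4 and Papss2 were smaller, at -1.25, -2.65 and 1.12.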

How the results depend on the processing

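The number of arrays limits the precision, and dim genes have compressed values, so that a missed call does not show equal responses. With quantile normalization repeated, 1339 genes were higher in fibroblasts, 1088 fell in P19 cells and 1659 fell in fibroblasts. With a shift to a common median, 1544 were higher and 1191 fell in P19 cells. With only the 12 arrays of the contrast in the fit, 1498 were higher, 1118 fell in P19 cells, and 1827 rose and 1646 fell in fibroblasts. Without replicate 2 of the batch 1 P19 controls, 2285 were higher and 2235 lower, 1992 rose and 2034 fell in P19 cells, and 2506 rose and 2422 fell in fibroblasts. With batch 1 controls in place of those of batches 2 and 3, 1263 were higher and 2535 lower, and 3046 rose and 2077 fell in P19 cells. Replicate 2 of the batch 1 P19 controls was among those controls. List counts with batch 1 controls stand against 1263 higher and 2535 lower. The fits on fewer arrays differ in the arrays that set the shared spread. For the scaling and the controls the cause was not tested.

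Leaving out 1 of the 12 arrays in turn gave 643 to 967 higher and 862 to 1013 lower. It gave 693 to 932 that rose and 330 to 704 that fell in P19 cells, the lowest without replicate 2 of the P19 cells with NeuroD2. In fibroblasts it gave 868 to 1276 that rose and 820 to 1186 that fell.

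Of 121 named genes with a called difference, 112 kept it with batch 1 controls and 9 lost it. Among differences called under either setting, 3 changed sign: Dlk1 (0.09 with x and s probe sets left out), Hes1 (0.71) and Id1 (-0.51), the last pair with batch 1 controls, and the cause was not tested. Another 7 named genes changed sign with no call in either: Dll1, Id2, Nanog, Sox2, Pou5f1, Col1a1 and Cdkn1c. With the replicate number as a block, 759 were higher and 975 lower, and 116 of the 121 kept their call. Arrays of the same number deviated together at r = 0.0412 to 0.155 in fibroblasts and 0.0493 to 0.17 in P19 cells. Arrays of different numbers deviated at r = -0.152 to 0.117 in fibroblasts and -0.171 to 0.118 in P19 cells. Of the NeuroD2 arrays, only replicate 2 of the fibroblasts correlated better with a control of another number (0.117 against 0.0543). Of the controls, replicate 1 of the fibroblasts (0.117 against 0.0412) and replicate 2 of the P19 cells (0.118 against 0.0493) did so. The main fit did not pair the arrays, and the block fit gives the counts with pairing.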
